A study of Homo sapiens with 9 samples.

Results

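The genes described here are 52 nuclear genes for subunits of respiratory chain complexes I to IV, chosen by name and matched to the probe sets of a 1-colour Affymetrix expression array. Of these 52, 45 had a probe set annotated to that gene alone, and all 45 passed the filter on dim genes, which asked for 3 or more of the 9 arrays to reach a log2 value of 4. They were 26 of 30 complex I genes, 3 of 4 complex II genes, 5 of 7 complex III genes and 11 of 11 complex IV genes, among 4368 genes tested in all. NDUFA4 carries a complex I name and was counted with complex IV, where its protein was later placed. NDUFC2, NDUFS5, NDUFS8 and UQCRH were read only by probe sets that list several genes, and NDUFB10, SDHB and UQCRFS1 were not analysed here.

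The respiratory chain is the series of protein complexes in the inner mitochondrial membrane that passes electrons from NADH and succinate to oxygen. Complex I (NADH dehydrogenase) and complex II (succinate dehydrogenase) feed electrons to ubiquinone, complex III (the cytochrome bc1 complex) moves them on to cytochrome c, and complex IV (cytochrome c oxidase) hands them to oxygen. Complexes I, III and IV pump protons, and ATP synthase uses the resulting gradient. The proximal tubule of the kidney depends on this pathway for the ATP that drives sodium reabsorption.

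The study followed gene expression in kidney epithelial cells exposed to TGFβ1. The cells were HK-2, an immortalised human kidney line of proximal tubule origin, kept in DMEM-F12 with EGF, hydrocortisone, triiodothyronine and an insulin, transferrin and selenium supplement. The 3 groups of 3 arrays were cells at 0 h, called untreated in the sample labels and vehicle in the design text, and cells exposed to TGFβ1 for 24 h or for 48 h. TGFβ1 is a cytokine under which epithelial cells take on mesenchymal traits. The sources used here give no dose, and no untreated culture of 24 h or 48 h was analysed, so TGFβ1 and time in culture cannot be told apart. Each array held RNA pooled from the plates of 1 time point of 1 run, and the 3 runs were done on different days with consecutive passages of this 1 line. The values are log2 values made by the authors with GCRMA. The brightness of different probe sets does not compare the abundance of different genes, so values are compared within a gene. In RNA from whole cultures, fewer cells expressing a gene and less RNA per cell cannot be told apart.

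NDUFS7 and NDUFA7 are the respiratory chain genes on which the tests below turn, and they moved in opposite directions. Both lie on chromosome 19. The 250 bases before the annotated start of transcription of each are shown, with the 30 bases around the match to AAGATGGCG, a motif bound by the transcription factor YY1, that both genes carry just after the start. The sequences are RefSeq's, from GRCh38.p14, on the strand of the gene, and capitals mark the motif. For NDUFS7 the windows are chr19:1383657-1383906 and chr19:1383914-1383943 on the plus strand. For NDUFA7 they are chr19:8321376-8321625 and chr19:8321342-8321371 on the minus strand.
NDUFS7 upstream: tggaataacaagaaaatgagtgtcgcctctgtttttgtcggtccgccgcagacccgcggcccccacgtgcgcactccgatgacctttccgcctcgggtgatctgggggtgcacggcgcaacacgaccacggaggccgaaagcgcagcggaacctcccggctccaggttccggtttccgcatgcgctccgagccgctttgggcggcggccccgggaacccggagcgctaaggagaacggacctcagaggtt
NDUFS7 motif: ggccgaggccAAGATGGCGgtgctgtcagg
NDUFA7 upstream: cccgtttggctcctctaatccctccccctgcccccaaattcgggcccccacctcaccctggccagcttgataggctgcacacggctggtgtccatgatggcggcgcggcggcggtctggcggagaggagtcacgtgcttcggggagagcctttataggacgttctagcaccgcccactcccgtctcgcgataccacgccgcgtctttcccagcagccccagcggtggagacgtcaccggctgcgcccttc
NDUFA7 motif: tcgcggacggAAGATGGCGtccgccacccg

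The motif begins at base 18 after the start in NDUFS7 and at base 15 in NDUFA7. Promoter windows of 300 bases, 250 before the start and 50 after it, were held for 40 of the 45 genes and were searched on both strands for 6 motifs. AAGATGGCG was found in 7 of the 40 (17.5%), namely NDUFA6, NDUFA7, NDUFA9, NDUFB8, NDUFS4, NDUFS7 and UQCRC1, against 2.14% of 27305 genes. These 27305 were all genes with a window, whether or not they passed the filter on the arrays. The shares for each motif therefore compare unlike sets of genes. The palindromic motif of NRF1, a regulator of nuclear genes for mitochondrial proteins, was in 7 of 40 (17.5%, against 6.98%), and the ETS motif CCGGAAG was in 11 of 40 (27.5%, against 12.2%). The ERR motif TCAAGGTCA was in 1 of 40 (2.5%, against 0.432%), the CRE motif TGACGTCA in 2 of 40 (5%, against 2.25%) and the SMAD palindrome GTCTAGAC in 0 of 40 (0%, against 0.256%). No matches of different motifs overlapped. Genes with the YY1-type motif included the largest positive change of the 45 genes, that of NDUFS7. They also included the 2 largest negative ones at 48 h, those of NDUFA7 and of NDUFS4, which passed in neither fit. The other genes with the motif had changes at 48 h of 0.05 (NDUFA6), 0.04 (NDUFA9), −0.11 (NDUFB8) and 0.25 (UQCRC1). Genes with the motif thus lay at both ends and between them. A match is a description of letters in a window and shows no binding. The letters AAGATGGCG contain ATG, and whether the matches overlap the start of translation was not examined.

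A check list of TGFβ1 response genes was read in the same arrays. It was chosen with earlier results of these data known, so its rise is a description and not a test of a response. All 6 response genes tested rose at both times, among them JAG1, a Notch ligand, by 4.07 at 24 h and 4.20 at 48 h on the log2 scale, and TAGLN, an actin-binding protein, by 2.81 and 2.44 (limma, adjusted p at most 0.0241). Of 13 proximal tubule markers on the array, 1 passed the filter, PAX8, which fell by 0.60 at 24 h and by 0.81 at 48 h, while the defining LRP2, CUBN and AQP1 lay at means below 2 in every group. Of 7 simple epithelial markers 5 passed the filter. EPCAM and CLDN1 fell at both times, KRT8 had 0.65 at 24 h (adjusted p = 0.064 in limma, 0.0123 with the run as a block) and 0.46 at 48 h, and KRT18 and KRT19 did not pass the test. Of 9 fibroblast markers only LUM passed the filter. Its changes of −0.37 at 24 h and 0.33 at 48 h did not pass the test. The summed log2 level of the list was 20.8 to 23.0 in untreated cells, 21.1 to 24.3 at 24 h and 22.3 to 22.9 at 48 h. No endothelial or leukocyte marker passed the filter. The part of these marker changes in the results below was not tested.

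The untreated arrays stood apart from each other in respiratory chain genes. For each gene the mean over the 9 arrays was subtracted, and the median of the 45 deviations was 0.04, 0.17 and −0.14 on the untreated arrays of runs 1, 2 and 3. At 24 h it was 0.01, 0.02 and 0.00, and at 48 h −0.07, −0.01 and −0.05. The same median over all genes tested lay between −0.02 and 0.02 on every array. Untreated run 2 was above untreated run 3 in 38 of 45 respiratory chain genes (84.4%, against 46.7% of all genes), by a median of 0.27. The median change of the 45 genes at 48 h was −0.08 in run 1, −0.17 in run 2 and 0.06 in run 3. Values within each run are given below, and the median of the 45 genes is repeated without untreated run 2 or run 3.

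**Figure D1:**
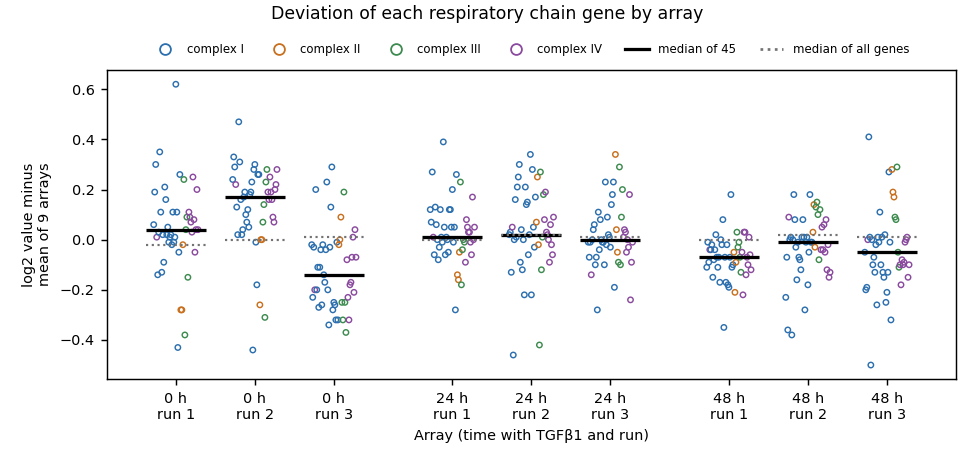
Deviation of each of the 45 genes from its own mean over the 9 arrays (y axis, log2 units) on each array (x axis, time with TGFβ1 and run). Points are genes coloured by complex, solid bars their median and dotted bars the median of all genes tested. The untreated array of run 2 sits highest (median 0.17) and that of run 3 lowest (−0.14), while the 6 TGFβ1 arrays have medians from −0.07 to 0.02.

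Few respiratory chain genes passed the test at either time, and the differences were small. At 24 h of TGFβ1, 0 of 45 passed an adjusted p of 0.05 in limma, where 4.81% of all genes tested passed (2.63% higher, 2.17% lower). With the run as a block, which compares arrays within a run, 1 of 45 passed (2.22%), NDUFS7, against 11.5% of all genes (5.95% higher, 5.52% lower). At 48 h, 1 of 45 passed (2.22%), again NDUFS7, which rose, against 4.44% of all genes (2.27% higher, 2.17% lower). With the run as a block 2 passed (4.44%), NDUFS7, which rose, and NDUFA7, which fell, against 10% of all genes (5.22% higher, 4.81% lower). With 45 genes, each of these shares turns on 1 or 2 genes.

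The size of the changes was bounded by their intervals. All 45 genes had a 95% confidence interval of the fold change within 2-fold up or down at both times, as did 80.5% of all genes at 24 h and 83.1% at 48 h. Within 1.5-fold lay the interval of 39 of 45 genes at 24 h (86.7%, against 39.7% of all genes) and of 37 at 48 h (82.2%, against 43.2%). All genes were not matched to the 45 for brightness, and its part in this difference was not tested. In lists described below the share at 24 h was 88.2% for ATP synthase genes and 40% for assembly factors. The quartiles of the log2 change of the 45 genes were −0.08 and 0.10 around a median of −0.02 at 24 h, and −0.18 and 0.04 around −0.06 at 48 h. For all genes they were −0.18 and 0.21 around 0.02, and −0.14 and 0.19 around 0.02. Without untreated run 3 the median of the 45 was −0.11 at 24 h and −0.13 at 48 h, and without untreated run 2 it was 0.05 and 0.00.

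**Figure D2:**
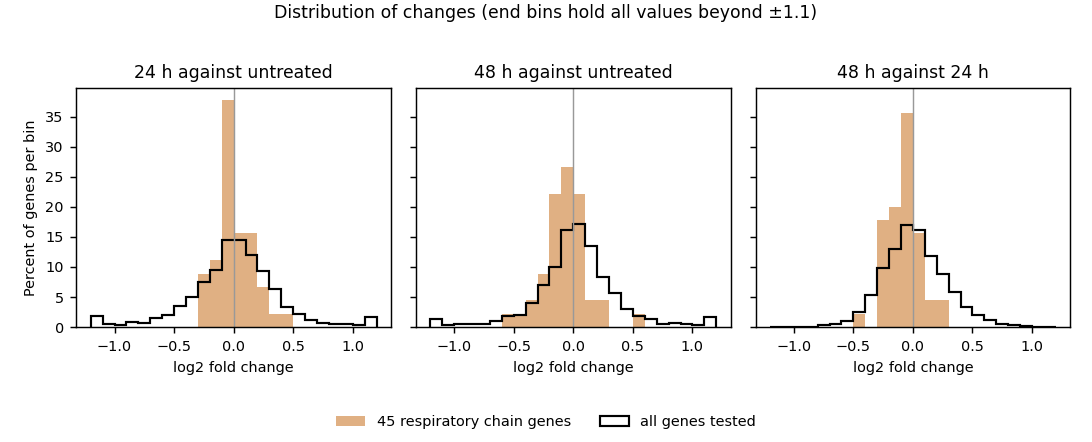
Distribution of the log2 fold change (x axis, bins of 0.1) for the 45 respiratory chain genes (filled) and all 4368 genes tested (line), as percent of genes per bin (y axis), for 24 h against untreated, 48 h against untreated and 48 h against 24 h. The 45 genes lie between −0.24 and 0.40 at 24 h and between −0.58 and 0.52 at 48 h, while single genes elsewhere reach 4.07 and 4.20.

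Complex I takes electrons from NADH through a flavin and a row of iron-sulfur clusters in its peripheral arm. Of its 26 genes tested, 5 encode core subunits of that arm and 21 accessory subunits. The median log2 change of the 26 was −0.02 at 24 h and −0.09 at 48 h. By run it was −0.01, −0.12 and 0.14 at 24 h, and −0.18, −0.19 and 0.02 at 48 h. With 1 array left out it ranged over −0.08 to 0.03 at 24 h and −0.15 to −0.02 at 48 h.

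NDUFS7 encodes the core subunit that holds the last iron-sulfur cluster before ubiquinone. Its log2 values were 4.42, 4.67 and 4.53 in untreated cells of runs 1 to 3, 4.90, 4.90 and 5.03 at 24 h, and 5.03, 5.03 and 5.12 at 48 h. All 6 TGFβ1 arrays were above all 3 untreated arrays. The change was 0.40 ± 0.122 (SE, n = 3 each) at 24 h, with an adjusted p in limma of 0.117 without the block and 0.0484 with it. At 48 h it was 0.52, or 1.43-fold higher, with an adjusted p in limma of 0.0447, and 0.0190 with the block. NDUFS7 is the dimmest of the 45, with a mean of 4.85 over the 9 arrays, close to the filter value of 4. Its call at 48 h was lost on leaving out any 1 of the 9 arrays, with adjusted p from 0.0527 to 0.182, while the change stayed between 0.46 and 0.58.

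The other core subunits did not pass in either fit. NDUFV1, which binds NADH and the flavin, had changes of −0.09 at 24 h and −0.11 at 48 h. NDUFV2 (0.01 and −0.21) and NDUFS1 (0.11 and 0.05) carry iron-sulfur clusters, and NDUFS3 had 0.13 and −0.14. For these 4 genes the adjusted p in limma was 0.763 or more at both times. The untreated arrays of NDUFS1 spanned 6.90, 6.47 and 7.20 in runs 1 to 3, and both TGFβ1 groups lay inside that span.

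NDUFA7, an accessory subunit of the peripheral arm, went the other way from NDUFS7. It stood at 6.01, 6.13 and 5.55 in untreated cells of runs 1 to 3, at 5.72, 5.82 and 5.72 at 24 h, and at 5.51, 5.28 and 5.16 at 48 h. The 48 h arrays were below every untreated array and every 24 h array, while the 24 h and untreated arrays overlapped. The change at 48 h was −0.58 ± 0.172 (1.49-fold lower), with an adjusted p in limma of 0.110, and 0.0323 with the run as a block. Without untreated run 3 it was −0.75 with an adjusted p of 0.0242, and without untreated run 2 it was −0.46 with an adjusted p of 0.281.

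NDUFS4, an accessory subunit whose loss causes Leigh syndrome, had the next lowest change at 48 h. Its values were 7.57, 7.25 and 6.70 in untreated cells, 7.15, 6.73 and 6.92 at 24 h and 6.76, 6.77 and 6.74 at 48 h. The 48 h arrays lay within 0.03 of each other, between the untreated array of run 3 and the other untreated arrays, and the change of −0.42 ± 0.212 did not pass (adjusted p = 0.451 in limma, 0.195 with the block).

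NDUFA3 and NDUFC1, small accessory subunits of the membrane arm, gave clearer separation at 48 h. NDUFA3 was at 8.14, 8.13 and 7.81 in untreated cells, 8.11, 7.71 and 7.83 at 24 h and 7.75, 7.48 and 7.65 at 48 h. NDUFC1 was at 9.02, 9.14 and 9.04 in untreated cells, 9.03, 8.85 and 9.0 at 24 h and 8.74, 8.63 and 8.76 at 48 h. For both genes every 48 h array was below every untreated array, with changes of −0.40 ± 0.159 and −0.36 ± 0.119. Neither passed, with adjusted p in limma of 0.278 for NDUFA3 and 0.178 for NDUFC1, and 0.0984 and 0.0863 with the block. The 48 h arrays of NDUFA1 were also below every untreated array, with a change of −0.22 (adjusted p = 0.527 in limma, 0.315 with the block). The share of all genes tested with groups apart in this way was not counted. Separation alone therefore does not set apart these genes, or any other gene described here.

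NDUFAB1, the acyl carrier protein of mitochondria, had its highest values at 24 h. It was at 7.99, 8.12 and 7.82 in untreated cells, 8.20, 8.38 and 8.19 at 24 h and 8.01, 8.05 and 7.95 at 48 h. The 24 h arrays lay above all other arrays, and the change of 0.28 ± 0.130 at 24 h did not pass (adjusted p = 0.336 in limma, 0.123 with the block). NDUFA5 had −0.24 at 24 h and 0.06 at 48 h, and its groups overlapped at both times.

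At the other extreme, NDUFB4, a membrane-arm subunit, ranged over 0.15 on the log2 scale across all 9 arrays. NDUFB7, also of the membrane arm and one of the dimmest of the 45, ranged over 0.58, with changes of 0.17 and −0.04 that did not pass. NDUFA9, an accessory subunit near the ubiquinone site, was higher in every run at both times, though by only 0.05 and 0.04 on average.

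Complex II oxidises succinate and is also an enzyme of the tricarboxylic acid cycle. Its 3 genes tested had a median change of 0.14 at 24 h and 0.13 at 48 h, above 0 in each run (0.12, 0.25 and 0.05 at 24 h, and 0.07, 0.14 and 0.19 at 48 h). None passed in either fit, and 3 genes are few. In each run the median was the value of SDHC, read by 1 of its several probe sets. SDHA, the flavoprotein that binds succinate, was at 7.37, 7.39 and 7.63 in untreated cells of runs 1 to 3, 7.51, 7.72 and 7.99 at 24 h and 7.60, 7.68 and 7.93 at 48 h.

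In every run SDHA was higher at 24 h and at 48 h than untreated, but run 3 was high at all 3 times and the groups overlapped. The changes were 0.28 ± 0.164 and 0.27, with adjusted p in limma of 0.479 and 0.564, and 0.128 and 0.158 with the block. SDHC, a membrane anchor, was at 7.68, 7.96 and 7.96 in untreated cells, 7.80, 8.21 and 8.0 at 24 h and 7.75, 8.10 and 8.15 at 48 h, likewise higher in each run and overlapping between groups. The other probe sets of SDHC lay closer to no change, with 0.09, 0.0 and 0.04 at 24 h and −0.05, 0.06 and 0.09 at 48 h. SDHD, the other anchor, had −0.06 and −0.01 and a range of 0.27 over the 9 arrays.

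Complex III passes electrons from ubiquinol to cytochrome c. The median change of its 5 genes tested was 0.01 at 24 h and 0.06 at 48 h, and 0 of 5 passed in either fit. At 48 h it was −0.05, 0.01 and 0.26 in runs 1, 2 and 3, and it turned to −0.07 without untreated run 3. UQCRC1, a core protein of the matrix side, was at 8.22, 8.74 and 8.28 in untreated cells of runs 1 to 3, 8.42, 8.87 and 8.89 at 24 h and 8.57, 8.75 and 8.68 at 48 h. It was higher in all 3 runs at both times, with changes of 0.31 ± 0.185 and 0.25, but by 0.01 in run 2 at 48 h, and the untreated array of run 2 lay inside the TGFβ1 groups. The adjusted p in limma was 0.472 at 24 h and 0.669 at 48 h, and 0.166 and 0.305 with the block.

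UQCRC2, the partner core protein, had −0.06 at 24 h and 0.16 at 48 h. CYC1, cytochrome c1, had 0.20 and 0.04, and at 24 h its change by run was 0.13, −0.10 and 0.58. UQCRB and UQCRQ, small subunits, had −0.11 and 0.06, and 0.01 and −0.09. In all 4 genes the TGFβ1 and untreated arrays overlapped at both times.

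Complex IV reduces oxygen with a catalytic core encoded in mitochondrial DNA, which the nuclear subunits measured here surround. The median change of its 11 genes was −0.04 at 24 h and −0.09 at 48 h, and 0 of 11 passed in either fit. All 11 had intervals within 1.5-fold at both times. At 48 h, 10 of the 11 had a mean below untreated (90.9%, against 45.3% of all genes), and the median by run was −0.15, −0.21 and 0.06. With 1 array left out the median of the complex ranged over −0.13 to 0.06 at 24 h and −0.19 to −0.04 at 48 h.

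COX7C, a small subunit, had the most negative change of the complex at both times. Its values were 10.23, 10.25 and 10.07 in untreated cells of runs 1 to 3, 10.03, 9.97 and 9.94 at 24 h and 9.97, 9.88 and 9.88 at 48 h. Every TGFβ1 array was below every untreated array, with changes of −0.20 ± 0.117 and −0.27. Neither passed (adjusted p = 0.466 and 0.335 in limma, 0.239 and 0.152 with the block). Its other probe sets gave −0.05 and −0.46 at 24 h and −0.19 and −0.48 at 48 h, also below 0.

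COX8A, the smallest subunit, was at 9.50, 9.74 and 9.39 in untreated cells, 9.51, 9.55 and 9.45 at 24 h and 9.34, 9.33 and 9.36 at 48 h. The 48 h arrays were below all others, by as little as 0.03 against untreated run 3, and the change of −0.20 did not pass (adjusted p = 0.603). COX5A (0.10 and −0.12), COX7A2 (0.05 and −0.09), COX6C (−0.08 and −0.03), COX6A1 (−0.02 at both times) and NDUFA4 (−0.04 and 0.01) lay closer to 0, and their TGFβ1 and untreated arrays overlapped. COX6C ranged over 0.18 across the 9 arrays.

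**Figure D3:**
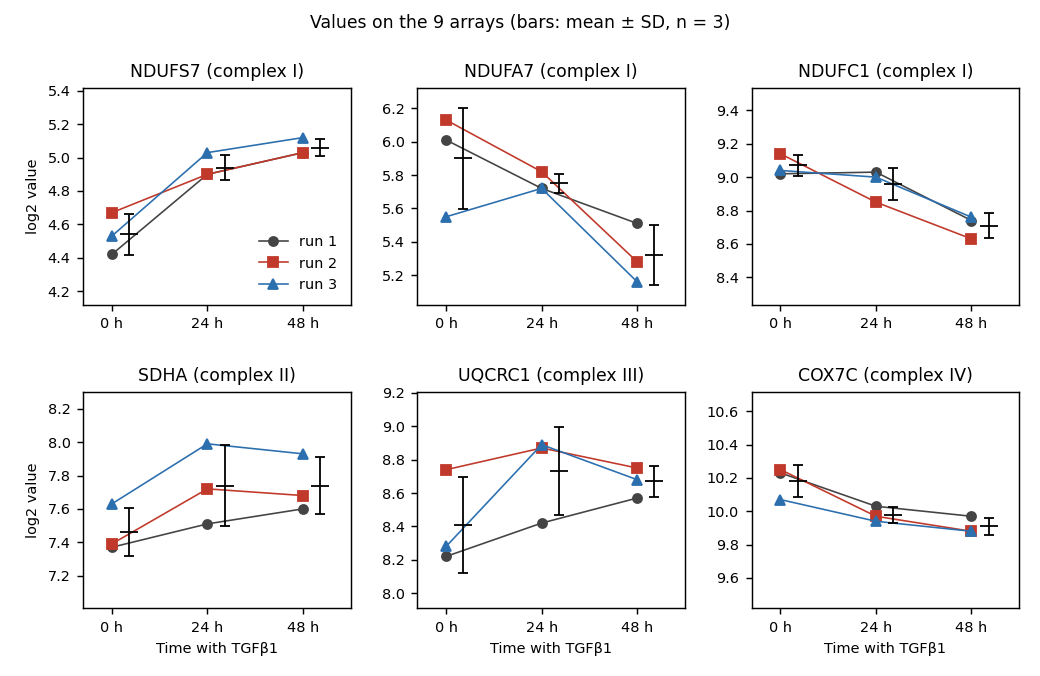
Log2 values (y axis) of 6 genes at 0 h, 24 h and 48 h of TGFβ1 (x axis), joined within each run, with the mean and SD of each group (n = 3) beside the points. Every panel spans 1.3 log2 units. In NDUFS7 the TGFβ1 arrays lie above the untreated arrays, in NDUFA7 and NDUFC1 the 48 h arrays lie below them, and in COX7C both TGFβ1 groups do, while SDHA and UQCRC1 overlap between groups.

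The direction of change was also counted within runs. At 24 h, 7 of 45 genes were higher than untreated in all 3 runs (15.6%, against 24.9% of all genes): NDUFA9, NDUFAB1, NDUFS3, NDUFS7, SDHA, SDHC and UQCRC1. Lower in all 3 were 4 of 45 (8.89%, against 19.8%): NDUFB1, NDUFB5, SDHD and COX7C. At 48 h, 5 were higher in all 3 (11.1%, against 23.2%): NDUFA9, NDUFS7, SDHA, SDHC and UQCRC1.

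Lower in all 3 runs at 48 h were 11 of 45 (24.4%, against 18.2%), 7 of them complex I accessory genes (NDUFA1, NDUFA3, NDUFA7, NDUFB2, NDUFB5, NDUFB8 and NDUFC1) and 4 of complex IV (COX4I1, COX7A2, COX7C and COX8A). This count depended on run 3, whose untreated array was the lowest. In runs 1 and 2 alone, 32 of 45 genes were lower at 48 h (71.1%, against 29.8% of all genes), in runs 1 and 3 alone 12 (26.7%, against 26.3%), and in runs 2 and 3 alone 11 (24.4%, against 25.3%).

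**Figure D4:**
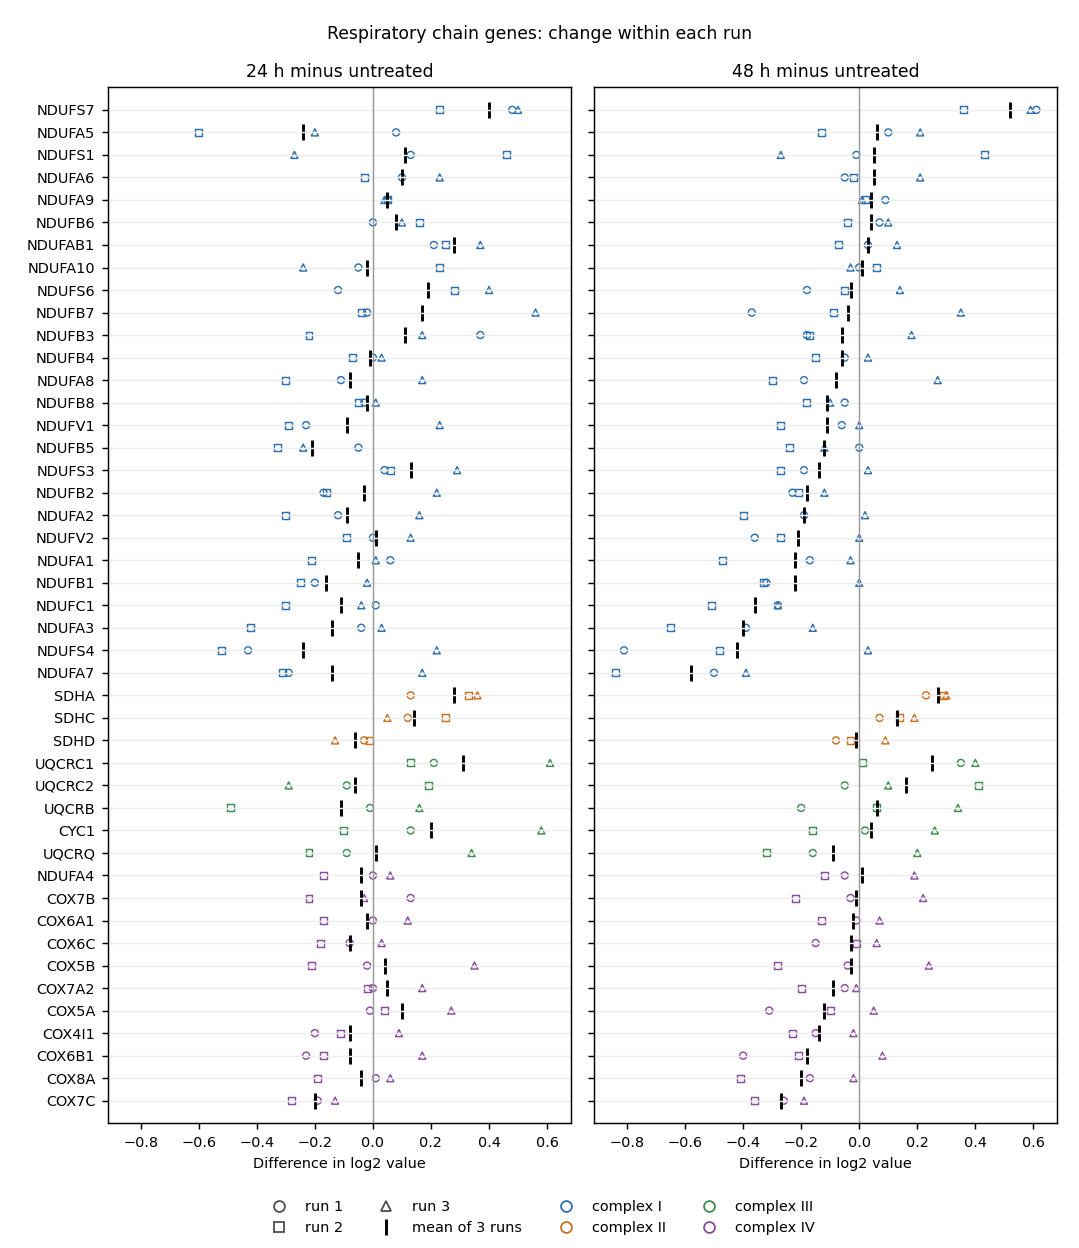
Change in log2 value (x axis) of each of the 45 genes (y axis, grouped and coloured by complex and ordered by the change at 48 h) within each run, at 24 h (left) and 48 h (right) minus untreated. Open symbols are runs and black bars the mean of 3 runs. The median at 48 h is −0.17 in run 2 and 0.06 in run 3, and NDUFS7 at the top and NDUFA7 at the foot of complex I have all 3 runs on 1 side of 0 at 48 h.

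The comparison of 48 h with 24 h of TGFβ1 takes no level from an untreated array. No respiratory chain gene passed in limma without or with the block (0% of all genes passed in either fit), and by an unadjusted p under 0.05 there were 1 of 45 (219 of 4368 genes) without the block and 3 of 45 (709 of 4368) with it. The 1 was NDUFA7 (−0.43), and the 3 were NDUFA7, NDUFAB1 (−0.25) and NDUFS3 (−0.27). The changes were small and mostly downward: 34 of 45 (75.6%) were below 0, against 49.5% of all genes, with a median of −0.06 overall and of −0.06, −0.07 and −0.06 in runs 1, 2 and 3.

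Lower at 48 h than at 24 h in all 3 runs were 20 of 45 genes (44.4%, against 22.3% of all genes), and 4 were higher (8.89%, against 21.1%). The 20 were 12 of complex I (NDUFA1, NDUFA2, NDUFA3, NDUFA7, NDUFAB1, NDUFB2, NDUFB7, NDUFB8, NDUFC1, NDUFS3, NDUFS6 and NDUFV2), 2 of complex III (UQCRQ and CYC1) and 6 of complex IV (COX5A, COX5B, COX6B1, COX7A2, COX7C and COX8A). The 4 were NDUFA5, NDUFB5, NDUFS7 and UQCRC2. With run 1, 2 or 3 left out, 24, 23 and 26 of 45 were lower in the other runs (53.3%, 51.1% and 57.8%, against 37.2%, 27.4% and 29% of all genes). These genes share arrays, so the counts describe the arrays and are not a test.

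Run and time point took similar shares of the variation. Noise alone also gives each of them a share, and the shares were not tested. The sum of squares of each gene over the 9 arrays was divided between time point, run and the rest, and the median shares of the 45 genes were 27.6%, 34.0% and 30.6%, against 29.2%, 38.6% and 22.9% for all genes. The median range over the 9 arrays was 0.53, against 0.82 for all genes, which were not matched for brightness. Time point took the largest shares in NDUFS7 (90.5%), NDUFC1 (84.0%), COX7C (80.5%) and NDUFA7 (68.3%). Run took more than time point did in 26 of 45 genes (57.8%, against 57.4% of all genes). Among these were NDUFA9 with 95.6% for run, SDHC with 78.2% and SDHA with 54.9%.

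Several genes were read by more than 1 probe set. Of 13 such genes, 9 had several sets past the filter. The sign of the change differed among their sets, or a set rounded to no change, in 6 at 24 h and in 3 at 48 h. NDUFB8 and SDHC at 24 h and COX5B at 48 h were counted only for a set that rounded to no change. The sets lay at most 0.41 apart (COX7C) at 24 h and 0.31 (NDUFA6) at 48 h. The sets of NDUFS7 and NDUFA7 were the only ones of those genes. Of the 45 sets used, 16 are of the type that can read several transcripts of 1 family, NDUFS7's among them, and 5 are of the type that can cross-match other sequences.

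Calls in lists of other genes that serve the respiratory chain are read against the shares of all genes given above. Of 20 assembly factors tested, 1 passed at 24 h (5%, against 4.81%) and 2 with the run as a block (10%, against 11.5%). BCS1L, which inserts the Rieske protein into complex III, rose at 24 h. Its values were 4.49, 5.26 and 4.43 in untreated cells, 5.53, 5.91 and 5.82 at 24 h and 5.18, 5.26 and 5.38 at 48 h. All 24 h arrays were above all untreated arrays, with a change of 1.03 (adjusted p = 0.0298 in limma, 0.00773 with the block), and at 48 h the change was 0.55 (adjusted p = 0.293).

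ECSIT, an assembly factor of complex I, had 0.87 at 24 h (adjusted p = 0.0549, and 0.00875 with the block). The list's median was −0.03 at 24 h and −0.09 at 48 h. The 6 other subunits tested outside the 45, among them UQCR10 and cytochrome c (CYCS), had changes between 0.00 and 0.11 at 24 h and between −0.11 and 0.03 at 48 h, and 0 of 6 passed in either fit.

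Of 17 ATP synthase genes 0 passed in either fit at either time, with medians of 0.01 and −0.04. The smallest p-values were those of ATP5MC3 at 24 h (0.22, adjusted p = 0.505) and ATP5ME at 48 h (−0.20, adjusted p = 0.550). Of 15 tricarboxylic acid cycle and pyruvate dehydrogenase genes 0 passed, with CS at 0.23 (24 h) and IDH3B at 0.37 (48 h) having the smallest p-values. Of 7 mitochondrial antioxidant enzymes 0 passed, with a median of −0.28 at 48 h and PRDX3, a peroxiredoxin, at −0.31 (adjusted p = 0.264).

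Of 40 mitochondrial ribosomal protein genes 1 passed at 48 h (2.5%, against 4.44%), MRPS35, which fell. It was at 7.42, 7.58 and 7.31 in untreated cells, 7.06, 7.08 and 7.17 at 24 h and 6.77, 7.03 and 6.66 at 48 h, with every 48 h array below every untreated array and a change of −0.61 (adjusted p = 0.0402 in limma, 0.0141 with the block). MRPL15 (−0.46) and MRPL34 (−0.56) fell at 48 h only in the fit with the block (adjusted p = 0.0289 and 0.0487). The list's median was 0.08 at 24 h and −0.07 at 48 h.

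Of 11 carriers, porins and uncouplers 1 passed at 24 h (9.09%, against 4.81%), MPC2, a subunit of the mitochondrial pyruvate carrier, which fell. It was at 8.63, 8.83 and 8.67 in untreated cells, 8.18, 8.20 and 8.11 at 24 h and 8.22, 8.33 and 8.34 at 48 h. Every TGFβ1 array was below every untreated array, with a change of −0.54 at 24 h (adjusted p = 0.0308) and of −0.41 at 48 h (adjusted p = 0.10, and 0.0421 with the block).

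Among 9 regulators of mitochondrial biogenesis, PPRC1, a coactivator related to PGC-1, had 0.60 at 24 h (adjusted p = 0.131, and 0.0427 with the block). PPARGC1A, NRF1, GABPA and ESRRA did not pass the filter. TFAM, which packages mitochondrial DNA, had −0.25 and −0.04 and did not pass the test. Of 16 import genes, TOMM34 had 0.57 at 24 h (adjusted p = 0.222, and 0.0171 with the block). Between 24 h and 48 h, 22.3% of all genes and 20 of 45 respiratory chain genes were lower in all 3 runs. So were 8 of 17 ATP synthase genes (47.1%), 17 of 40 mitochondrial ribosomal protein genes (42.5%), 7 of 16 import genes (43.8%) and 8 of 20 assembly factors (40%). In the other lists the counts were 3 of 6 other subunits, 3 of 15 tricarboxylic acid cycle and pyruvate dehydrogenase genes, 2 of 11 carriers, 2 of 9 biogenesis regulators and 2 of 7 antioxidant enzymes.

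**Figure D5:**
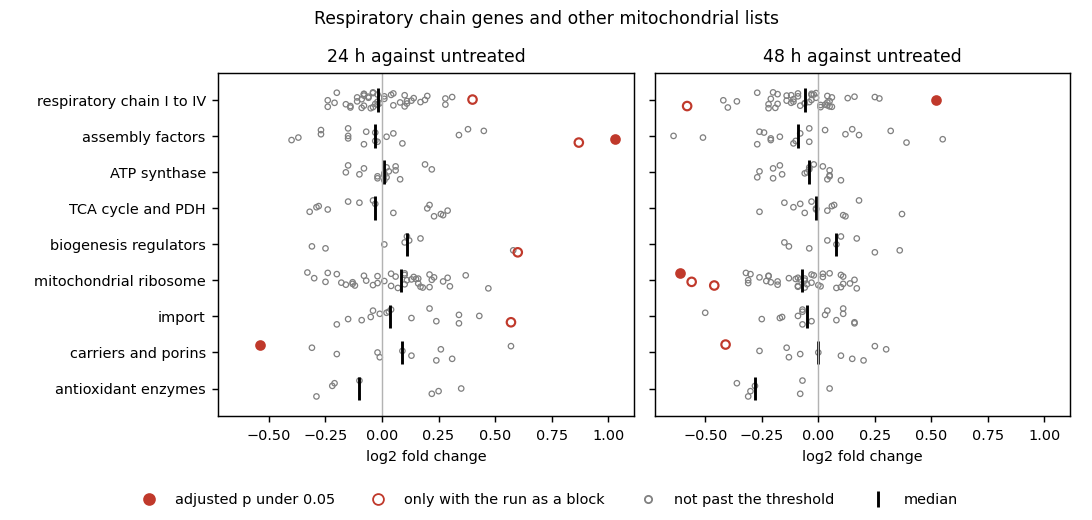
Log2 fold change (x axis) at 24 h (left) and 48 h (right) against untreated of each tested gene in 9 lists (y axis), with the respiratory chain genes at the top. Black bars are medians, filled red points passed an adjusted p of 0.05 in limma, and open red points passed only with the run as a block. Of the respiratory chain genes only NDUFS7 is filled, at 48 h. BCS1L is the filled point of the assembly factors, MRPS35 that of the mitochondrial ribosome and MPC2 that of the carriers.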

How the data were processed

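The deposited values are log2 values per probe set, made by the authors with GCRMA per the submitters' processing notes (version not given in the sources used here), and were used without further normalization. Probe sets with 1 gene symbol were named from the platform annotation and updated through a RefSeq gene table, and of several sets of a gene the brightest on average was used. The filter kept genes that reached a log2 value of 4 on 3 or more arrays. Differences were tested with limma (version 3.58.1, R 4.3.3), with all 9 arrays in 1 fit, two-sided, and Benjamini-Hochberg adjustment over 4368 genes. The scripts were tested on simulated data. Members and lists were chosen with earlier results of these data known. Members were named by a rule on calls, extremes per complex and brightness, NDUFA1, NDUFA3, NDUFC1, NDUFA9 and the other core subunits after their values were seen. Deviations from group means correlated at 0.378 to 0.662 between arrays of the same replicate number and at −0.526 to 0.185 otherwise, so the number was taken as the run and used as a block in a second fit. Runs are of 1 cell line. Without the block, p-values measure the spread between runs. With the block, they measure how far the differences between time points vary from run to run. The number of arrays limits the precision.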

Additional observations from a re-analysis of the deposited data

How the results depend on the processing

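The replicate block (run as a block) raised the genes called to 501 at 24 h and 438 at 48 h, and the respiratory chain genes called to 1 (NDUFS7) and 2 (with NDUFA7). It changed no other call among the 45. The 1 respiratory chain gene called at 48 h, NDUFS7, lost its call (0 called) with quantile normalization, with trend and robust settings of limma, with only the 2 groups compared, and on leaving out any array or run. A stricter filter at log2 6 left it untested, so that count of 0 says nothing of it. With arrays left out 0 to 1 were called, the 1 being NDUFA7, without untreated replicate 3. At 24 h the genes called were 124 with only the 2 groups, and 34 to 213 with arrays or runs left out. At 48 h they were 33 to 206 with arrays or runs left out. The complex II median at 48 h ranged over 0.04 to 0.26 on leaving out arrays. NDUFS7 at 48 h was past the threshold in 5 of 20 alternatives (adjusted p from 0.019 to 0.403) and NDUFA7 in 2 of 20 (0.0242 to 0.554). Of 916 values of named genes under alternatives, 55 had the other sign, all of them not past the threshold. The counts with a run left out were chosen after seeing the data. Arrays with no detection calls limit what can be said of dim genes such as NDUFS7.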
